A study of Saccharomyces cerevisiae with 2 samples.

Results

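The subject is the array that compared yeast cells 30 min after the addition of 0.7 M NaCl with unstressed cells. Its values were taken from the deposited column of that array, and each feature listed at exactly 0 was set aside, because a missing estimate may have been written as 0. Of the 6868 features on the array 63 were at 0, which left 6805 to describe. Of all 6868 features 5984 matched a gene of the reference table and 884 did not.

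The series holds 2 arrays, 1 for cells at 30 min and 1 for cells at 60 min. Both channels held Saccharomyces cerevisiae, budding yeast, of the haploid alpha strain BY4742, whose genotype reads his3kan. Cultures were shaken in batch at 30 °C in synthetic complete (SC) medium. Total RNA was isolated with hot phenol and copied into amino-allyl cDNA, and the cDNA was hybridised to a 2-colour NimbleGen tiling array. Channel 1 held the stressed cells, labelled Oyster 550, and channel 2 held the unstressed cells, labelled Oyster 650. With no dye swap, an effect of dye and one of treatment cannot be told apart. The title puts the unstressed cells at time zero, so salt and time in culture cannot be told apart either. The unstressed channel of the 30 min array carries the unexplained code O25, and the labels do not say whether the 60 min array used the same unstressed RNA. A ratio of RNA from whole cultures does not tell a change in every cell from a change in some of the cells.

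Yeast in high salt loses water, and the high osmolarity glycerol (HOG) pathway, a kinase cascade ending in Hog1, drives the making and retention of glycerol as a compatible solute. A wider programme, the environmental stress response, follows many stresses. In it genes of stress defence and reserve carbohydrates are induced through factors such as Msn2 and Msn4, and genes for making ribosomes are repressed, both as a rule transiently.

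Each value is a log2 ratio, so that 1 stands for 2-fold and 0 for no difference. The log base is not stated and base 2 was assumed. The direction is not stated either but is likely that of stressed cells over unstressed ones. This rests on a list of 12 textbook salt-induced genes, all of which were at least 2-fold positive, from 2.01 for HOR7 to 8.32 for STL1. Higher and lower below mean higher and lower in the stressed cells under that reading, and each would turn round under the opposite one. The reporters' own direction is therefore no result. With 1 array per time there is no replicate error and no test, the number of arrays limits the precision, and differences are described by size only. The spread given beside a median is the interquartile range over the genes of a list, which is not an experimental error. A ratio gives no transcript level, so the strain could not be checked by expressed markers. The alpha-specific genes had ratios of -1.11 for AFB1, -1.31 for STE3, -2.06 for SAG1, -2.98 for MF(ALPHA)1 and -3.30 for MF(ALPHA)2. The a-specific genes, which alpha cells repress, ran from -0.17 for STE2 and -0.15 for BAR1, through 0.11 for AGA2, 0.26 for MFA1, 0.64 for STE6 and 0.77 for MFA2, to 1.20 for ASG7.

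Higher by 2-fold or more were 1087 of the 6805 features (16%), and 1186 (17.4%) were lower by as much, which makes 33.4% in either direction. The other 4532 lay within 2-fold. The SD over features was 1.34, and 3399 features were above 0 against 3406 below it. The column as deposited has a median of 0, as after centring, so every ratio is relative to the other features. The side with more features differed between fold sizes. At least 4-fold higher were 347 features against 498 lower, at least 8-fold 155 against 154, at least 16-fold 64 against 35 and at least 32-fold 29 against 3. A ratio of at least 64-fold was found for 19 higher features and for 0 lower ones. Between -2.5 and -2.0 stood 222 features, slightly more than the 219 in the next interval of the same width towards 0, from -2.0 to -1.5. Cytosolic ribosomal protein genes made up 72 of the 222 (32.4%) and 22 of the 219, an interval chosen after its values were seen. Of all 136 such genes with a symbol in the RPL, RPS or RPP series, 135 were at least 2-fold lower, within a narrow interquartile range of -2.54 to -2.10. Near-identical copies among them, such as RPL19A and RPL19B, may share signal.

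**Figure D1:**
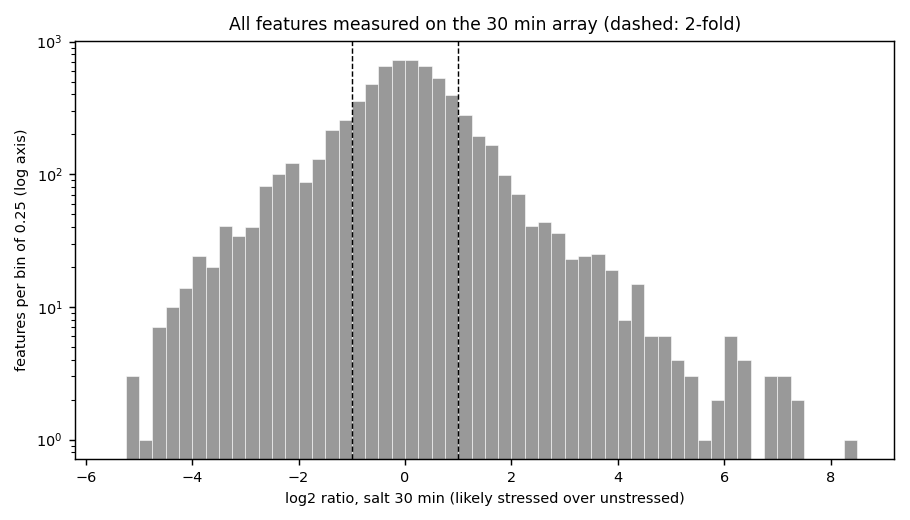
Distribution of the log2 ratios of the 6805 features at 30 min (x axis, log2 ratio, and y axis, number of features per bin on a log scale), with lines at the 2-fold threshold on each side. The higher side reaches 8.32 and the lower side -5.16, and 1087 and 1186 features lie beyond the lines.

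The features nearest to the threshold show where the counts turn. Just inside on the higher side were BPH1, GEX1 and YOR200W, and just outside were HRD1, AKL1 and ATG45, the farthest of the 6 being HRD1, 0.0019 from the line on the log2 scale. On the lower side CCW12, YAR073W and YEL075C were just inside and LOS1, SPP41 and OLE1 just outside, the farthest being LOS1 at 0.0026. OLE1, the fatty acid desaturase, thus lies outside and CCW12, a major cell wall mannoprotein, inside, with almost the same ratio.

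The 30 highest ratios are described by roles that were assigned after the values were seen. Membrane transport had 3 of them. STL1, the glycerol-proton symporter, had 8.32, a 320.4-fold difference. HXT5, a hexose transporter, had 7.18, and PUT4, the proline permease, had 5.40. The pentose phosphate pathway, which makes NADPH and pentoses, also had 3, and all were minor isoenzymes: the transketolase TKL2 with 7.36, the transaldolase NQM1 with 6.85 and the 6-phosphogluconate dehydrogenase GND2 with 6.14. The hydrophilins GRE1 (7.26) and SIP18 (6.97) are small hydrophilic proteins linked to desiccation. The aldehyde dehydrogenases ALD3 (6.94) and ALD2 (6.17) are near-identical neighbours, and their ratios may be partly shared. Proteins of the cell surface made up another set. SPS100, a spore wall protein, had 7.03 and SPI1, a cell wall protein, had 5.34. YNL194C (6.38) and FMP45 (5.15) belong to the Sur7 family of the cell cortex.

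Single representatives of other functions were also among these 30. CTT1, the cytosolic catalase, had 6.40 and RTN2, a reticulon of the endoplasmic reticulum, had 6.19. HBT1, which acts in cell shape, had 5.75. BAG7, a GTPase-activating protein for Rho1, had 5.40 and ARO9, an aromatic aminotransferase, had 5.13. The other 11 are given without a role: YBR116C (7.25), PHM7 (6.28), YCL048W-A (6.26), FMP16 (6.21), SPG4 (6.08), CPP3 (6.04), YNL195C (5.81), RTC3 (5.74), MSC1 (5.11), YKL107W (5.02) and YOR019W (4.98). The systematic number of YBR116C adjoins that of TKL2 (YBR117C), and that of YNL195C adjoins that of YNL194C.

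Of the 30 lowest ratios, with roles also assigned after the values were seen, 22 were from genes of ribosome assembly. NSR1, a nucleolar protein, had -5.16, a 35.8-fold difference. SYO1, which carries ribosomal proteins L5 and L11 into the nucleus, had -4.91. RRP12, an export factor, had -4.74 and UTP23, of the small subunit precursor, had -4.61. The RNA helicase HCA4 had -4.57 and the GTPase NOG1 had -4.50. NOP7 (-4.49) and YTM1 (-4.32) are partners in one complex of the large subunit precursor. RRS1 (-4.48), BRX1 (-4.43) and NOC2 (-4.31) also act on the large subunit. RRP5 (-4.46) acts on both subunits, and MRD1 (-4.34) and BFR2 (-4.27) act on the small one. The remaining ones ran from NOP13 with -4.19 to LTV1 with -4.08.

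The other 8 of the lowest features had different roles. HO, the endonuclease of mating-type switching, had -5.06, and AAH1, the adenine deaminase of purine salvage, had -5.02. ZEO1, a protein linked to the cell wall integrity pathway, had -4.72. RPA43, a subunit of RNA polymerase I, had -4.60 and TRM11, a tRNA methyltransferase subunit, had -4.59. URA7, the CTP synthase, had -4.41. SFG1, a putative transcription factor of pseudohyphal growth, had -4.28. LIA1, the deoxyhypusine hydroxylase that completes the modification of translation factor eIF5A, had -4.24.

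To describe the column beyond its extremes, 57 gene lists with 1192 names were used, of which 3 names (TPO3, PIS1 and AAD16) matched no feature. The median was at least 2-fold lower for 11 lists, at least 2-fold higher for 5 and within 2-fold for 41. The counts of every list are to be read against the 16% higher and 17.4% lower over all features and a median of 0. The counts are descriptions with no test.

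Of 29 transcription factors that act in stress, 7 were at least 2-fold higher and 3 lower, with a median of 0.49. Their interquartile range of -0.09 to 0.91 was narrower than that over all features, which was -0.65 to 0.64. USV1 had 4.22, MGA1 3.49 and the repressor XBP1 2.69, and GIS1, which acts as nutrients run out, had 1.78. FKH1, a forkhead factor of the cell cycle, had -2.63. SOK2 and PHD1, related regulators of pseudohyphal growth, had -1.54 and -1.41, and SKN7, a factor of the osmotic and oxidative response, had -0.96.

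Regulators of the response to carbon source had 8 of 32 at least 2-fold higher and 2 lower (median 0.48, interquartile range -0.23 to 0.93). The activators of gluconeogenic genes SIP4 and CAT8 had 3.66 and 2.57. The repressors NRG1 and NRG2, which are paralogs, had 2.40 and -1.04. REG2, a targeting subunit of the phosphatase Glc7, had 2.07, and MIG2, a glucose repressor, was the other lower one, just past 2-fold. Regulators of ribosomal genes had 2 of 20 higher and 4 lower (median 0.05, interquartile range -0.69 to 0.65). The higher ones were CRF1, a corepressor of ribosomal protein genes, with 2.36, and the kinase YAK1 with 2.03. The lower ones were TOD6 with -3.46, IFH1 with -1.33, RAP1 with -1.05 and FHL1 with -1.01. IFH1, RAP1 and FHL1 activate ribosomal protein genes, whereas TOD6 is a repressor of ribosome biogenesis genes, so these 4 do not share a sign of action.

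Ribosome assembly was lower in nearly all of its parts. Over 8 lists with 75 measured genes, 70 were at least 2-fold lower and 0 higher, with a median of -3.04 (8.22-fold) and an interquartile range of -3.57 to -2.26. The small subunit processome binds the nascent ribosomal RNA, and its 3 subcomplexes had closely similar ratios. All 7 genes of UtpA were at least 2-fold lower (median -3.09), from UTP9 with -2.21 to NAN1 with -3.87. All 6 of UtpB were lower (median -3.03), from UTP13 with -2.68 to PWP2 with -3.52. In the Mpp10 complex MPP10 had -2.32, IMP4 -3.18 and IMP3 -3.23.

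Among the proteins that act on the ribosomal RNA precursor, the snoRNP and helicase lists had the lowest medians. All 9 core proteins of the small nucleolar ribonucleoproteins (snoRNPs), which guide its modification, were at least 2-fold lower (median -3.30). NOP58, NOP56 and NOP1 of the methylating particles had -3.82, -3.72 and -3.68, CBF5, the pseudouridine synthase, had -3.38, and RRP9, specific to 1 particle, had -1.96. All 19 RNA helicases were at least 2-fold lower (median -3.39), from DBP6 with -1.65 to HCA4 with -4.57. MTR4, ROK1 and DBP3 had -4.07, -4.15 and -4.17. Of 12 GTPases, AAA ATPases and Rio kinases, 11 were lower (median -2.43). NOG1 had -4.50, NOG2 -3.32 and RIX7 -3.22, while RIA1, the cytoplasmic GTPase that releases Tif6, had -0.55 and RIO1 had -1.20.

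General export factors were closer to 0 than most factors dedicated to ribosome assembly. Of 11 factors that export the large subunit, 7 were at least 2-fold lower (median -2.36). ALB1 (-3.98), ARX1 (-3.96) and the adaptor NMD3 (-3.28) were the lowest. The 4 that did not pass were the general exportin CRM1 with 0.54, the messenger RNA export pair MEX67 and MTR2 with -0.03 and -0.73, and TIF6 with -0.76. All 8 dedicated chaperones of ribosomal proteins were lower (median -2.71). They ran from YAR1, the chaperone of Rps3, with -1.72, to RRB1, the chaperone of Rpl3, with -4.17, and SYO1 with -4.91.

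RNA processing outside the ribosome was graded. Among 39 tRNA modification enzymes 32 were at least 2-fold lower and 0 higher, all 39 were below 0, and the median was -1.74 (interquartile range -2.28 to -1.26). TRM11 had -4.59 and TRM82 had -3.59, and each is a subunit of a tRNA guanine methyltransferase. TRM1 and TRM2 had -3.36 and -3.32, while RIT1, THG1 and TAD1 had -0.14, -0.16 and -0.61. The nuclear exosome and its TRAMP cofactors degrade and trim RNA, and 10 of 17 were at least 2-fold lower (median -1.07). The poly(A) polymerase TRF5 had -3.25 against -0.86 for the related PAP2. The zinc knuckle protein AIR1 had -2.32 against 0.18 for its paralog AIR2.

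In mRNA decay the median was 0.01. Of its 28 genes 1 was at least 2-fold higher (EDC2, an activator of decapping, with 2.11) and 2 lower (the decapping subunit DCP1 with -1.32 and UPF3 of nonsense-mediated decay with -1.01). The spliceosome had 0 of 38 higher and 1 lower, SME1 with -1.09 (median -0.17). The transcription machinery was the group with the smallest share of genes past 2-fold. Of 70 genes of Mediator, SAGA and the remodellers RSC and SWI/SNF, 2 were at least 2-fold higher and 2 lower, which is 2.86% in each direction, with a median of -0.23. These 4 were RSC9 with 1.33 and the Mediator genes SSN8 with 1.02, SRB7 with -1.02 and MED6 with -1.04. Of the SAGA genes 0 of 19 passed 2-fold, from SPT3 with 0.62 to TRA1 with -0.70.

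Most genes of nuclear transport lay within 2-fold, as did most features of the array. Of 29 nuclear pore genes 3 were lower and 0 higher (median -0.33), with NUP100 at -1.40, NUP2 at -1.28 and GLE1 at -1.20. Of 20 transport receptors and Ran genes 5 were lower and 1 higher (median -0.34). KAP123, the importin of ribosomal proteins, had -2.41, and SXM1, another importin, had -1.08. The chaperonin CCT and its partner prefoldin fold actin and tubulin. All 15 of their genes were below 0 and 5 were at least 2-fold lower (median -0.57), led by the prefoldin genes PAC10 with -1.78, GIM4 with -1.57 and YKE2 with -1.52, while CCT2 had -0.26.

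**Figure D2:**
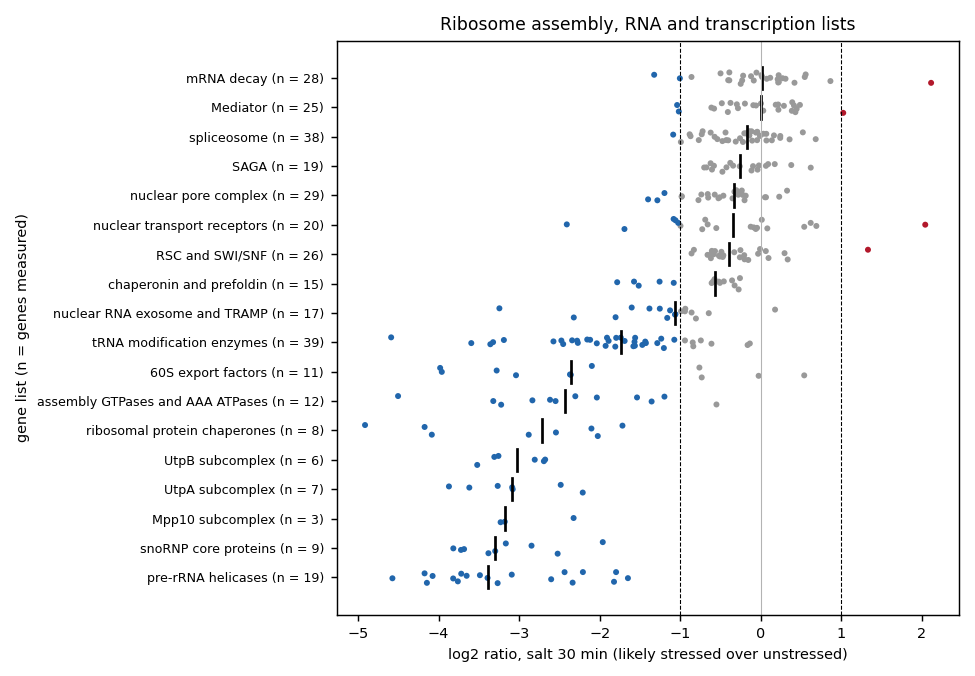
Log2 ratios at 30 min (x axis) of the genes of the lists on ribosome assembly, RNA, transcription and protein folding, with 1 point per gene, a bar at each list's median and lines at 2-fold. The ribosome assembly lists have medians between -2.36 and -3.39, and the lists of Mediator, SAGA and mRNA decay lie around 0.

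The degradation group joined the lists of vacuolar hydrolases, the GID ligase and ubiquitin, and not all of its hydrolases act on proteins. It had the largest share of higher genes among the groups of lists, the reporters left aside. Here 28 of 48 (58.3%) passed 2-fold upwards and 0 downwards, with a median of 1.10 and an interquartile range of 0.46 to 1.69. The GID complex is a ubiquitin ligase that marks gluconeogenic enzymes for degradation, and all 8 of its genes were at least 2-fold higher (median 1.80). GID10, a substrate receptor, had 4.87 and VID24, the main substrate receptor, had 2.11. FYV10 had 2.09, VID30 1.84, RMD5 1.52, GID8 1.32 and GID7 1.07. Of 12 vacuolar hydrolases 10 were at least 2-fold higher (median 1.33). ATH1, the acid trehalase, had 2.92, the mannosidase AMS1 2.67, the protease PRB1 1.99 and the aminopeptidase APE1 1.79. PHO8 and CPS1 had 0.51 and 0.28. Among 28 genes of ubiquitin, its conjugating enzymes and the adaptors of the ligase Rsp5, 10 were higher (median 0.56). The polyubiquitin gene UBI4 had 2.28, the adaptors CSR2 and ROD1 2.19 and 1.66, and the conjugating enzyme UBC5 1.96 against -0.43 for its paralog UBC4.

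Among the 116 genes of nutrient uptake and alternative substrates 28 lay 2-fold or more above 0 and 10 below, with a median of 0.28. In the shunt that degrades gamma-aminobutyrate (GABA), GAD1, the glutamate decarboxylase, had 3.78, the dehydrogenase UGA2 2.94 and the transaminase UGA1 1.89, while the permease UGA4 had 0.85 and the activator UGA3 -0.56. The list of carboxylate transport and galactose genes had 10 of 15 higher and 1 lower (median 1.22). Its highest member was the phosphoglucomutase PGM2 with 4.29. The lactate permease JEN1 had 3.29 and the acetate transporter ADY2 3.14. Their relatives ATO2 and ATO3 stood apart from each other, with 2.96 and -2.63. SUC2, invertase, had -0.17.

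Amino acid permeases had 3 of 24 higher and 4 lower (median 0.20). Besides PUT4 (5.40), MUP3 had 1.76 and AGP2 had 1.29. The lower ones were TAT1 with -2.21, the methionine permease MUP1 with -1.74, and the related permeases SAM3 and MMP1, for S-adenosylmethionine and S-methylmethionine, with -1.70 and -1.59. Thus the low-affinity methionine permease MUP3 and the high-affinity one MUP1 had ratios of opposite sign. Nitrogen catabolite genes had 6 of 26 higher and 2 lower (median 0.41), with the repressor DAL80 at 1.86 and the glutamate dehydrogenase GDH2 at 1.66 against GLT1, the glutamate synthase, at -1.04. The biosynthetic dehydrogenase GDH1 had -0.73. Of 22 zinc and copper genes 1 was higher and 3 lower (median -0.37). The high-affinity transporters for zinc, ZRT1, and for copper, CTR1, both had -2.33. CRS5, a metallothionein, had 1.78. The other metallothionein, CUP1-1, which is a near-identical copy of CUP1-2, had -0.99. Drug efflux pumps had 5 of 24 higher and 0 lower (median 0.27), led by PDR15 with 1.95, while PDR5 had -0.66.

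Lipid genes were evenly split, 12 of 85 being past 2-fold upwards and 12 downwards (median 0.06). Fatty acid synthesis leaned lower, with 6 of 18 against 1 (median -0.64). The elongases of very long chains ELO3 and ELO2 had -3.05 and -2.03. Of the acyl-CoA synthetases FAA1 had 1.36, FAA2 0.81, FAA3 -1.23 and FAA4 -1.38. In sphingolipid metabolism 3 of 25 were higher and 3 lower (median 0.10). The higher ones were the ceramidases YPC1 (2.84) and YDC1 (1.38) and the fatty aldehyde dehydrogenase HFD1 (2.36). The lower ones were AUR1, inositol phosphorylceramide synthase, with -1.67, the hydroxylase SUR2 with -1.38 and LCB1, of the first step of synthesis, with -1.07. Each share, 12%, was below that over all features (16% higher and 17.4% lower), and the other 19 genes lay within 2-fold. Of 16 neutral lipid genes 4 were higher and 2 lower (median 0.82). The lipid droplet protein PLN1 had 2.26, the lipase TGL2 1.31 and the acyltransferase DGA1 1.01, while the steryl ester hydrolase YEH1 had -1.42 and the sterol acyltransferase ARE1 -1.04. Phospholipid synthesis had 4 of 26 higher and 1 lower (median 0.09), with the glycerol-3-phosphate acyltransferase GPT2 at 1.91 and INO1, inositol-3-phosphate synthase, at 1.38.

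Mitochondrial carriers had wide ratios in both directions, whereas import genes did not. Of 29 carriers 6 were at least 2-fold higher and 7 lower (median 0.02, interquartile range -0.99 to 0.94). The pyruvate carrier subunit MPC3 had 4.45, the phosphate and copper carrier PIC2 3.26 and the carnitine carrier CRC1 2.57. The lowest were YMC2 with -3.85, the oxaloacetate carrier OAC1 with -2.22 and the ADP/ATP carrier AAC3 with -2.11. Its isoform AAC1 had 1.46. Of 33 import genes 0 were higher and 2 lower, OXA1 with -1.44 and TIM23 with -1.17 (median -0.36). Peroxisome biogenesis had 2 of 27 higher and 1 lower (median 0.28). The higher and the lower extreme were a pair of paralogs, PEX18 with 2.97 and PEX21 with -1.66, which both act with the import receptor Pex7.

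Cofactor and nucleotide genes had 8 of 81 higher and 21 lower. In the synthesis of pyrimidines and polyamines 9 of 17 were lower and 1 higher (median -1.06). URA7 had -4.41, URA1, dihydroorotate dehydrogenase, -2.89, FUR1, of uracil salvage, -2.82, and URA2, of the first steps, -2.29. The exception was URA10, the minor orotate phosphoribosyltransferase, with 2.94. In one-carbon metabolism 6 of 16 were lower and 1 higher (median -0.43). DFR1, dihydrofolate reductase, had -2.08, MIS1 -2.06, SHM1, serine hydroxymethyltransferase, -1.79 and CDC21, thymidylate synthase, -1.54, while GCV1 of the glycine cleavage system had 1.27. For NAD and thiamine 4 of 26 were higher and 4 lower (median 0.39). PNC1, the nicotinamidase, had 3.33, THI4, of thiazole synthesis, 2.51, BNA2, of the first step from tryptophan to NAD, 1.66, and PHO3, a phosphatase of thiamine phosphates, -3.79. Of 9 haem genes 2 were higher, ferrochelatase (HEM15) with 1.35 and haem oxygenase (HMX1) with 1.25. Pyridoxine and biotin genes had 0 of 13 higher and 2 lower, BIO2 with -1.33 and SNZ1 with -1.31.

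**Figure D3:**
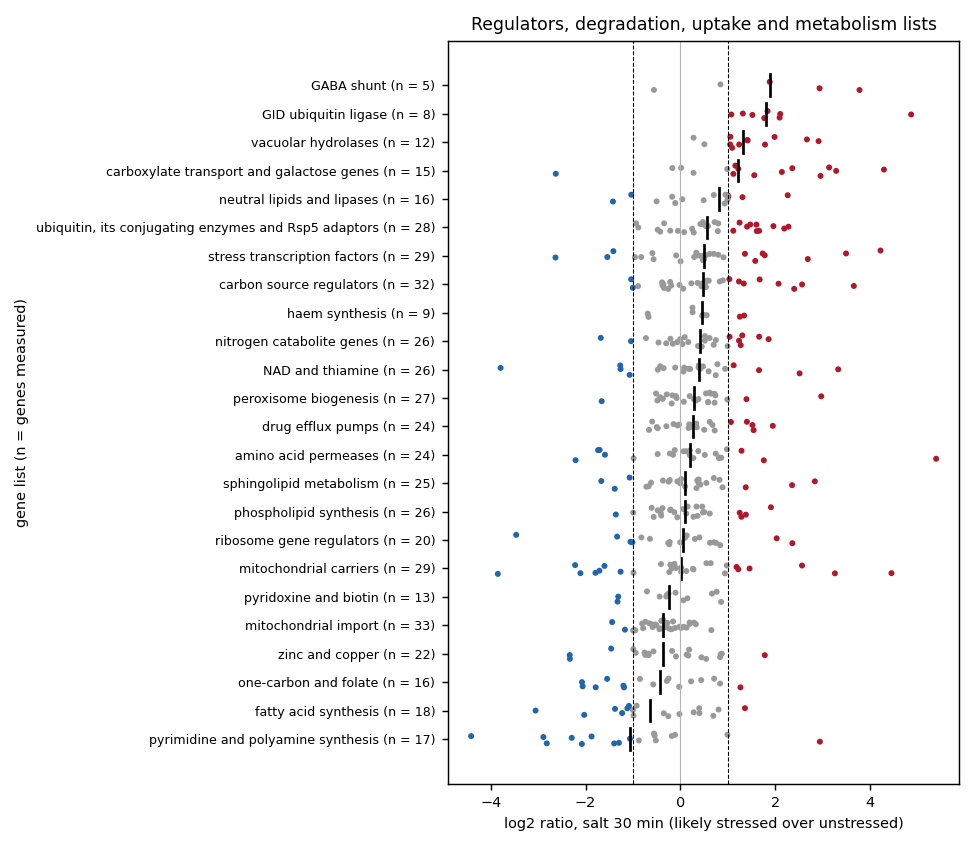
Log2 ratios at 30 min (x axis) of the genes of the lists on regulators, degradation, uptake, lipids, mitochondria and cofactors, with 1 point per gene, a bar at each list's median and lines at 2-fold. The GID ligase (median 1.80) and the vacuolar hydrolases (1.33) lie to the right, and pyrimidine and polyamine synthesis (-1.06) to the left.

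The secretory pathway differed less, with 5 of 133 genes at least 2-fold higher and 15 lower (median -0.28). All 21 genes of the translocon and the signal recognition particle were below 0, and 3 passed 2-fold: a receptor subunit of the signal recognition particle with -1.16, SEC61 with -1.12 and SBH1 with -1.10. Of 20 Golgi mannosyltransferase genes 6 were lower and 1 higher (median -0.55). MNN1 had -2.86, the GDPase GDA1 -2.02 and the GDP-mannose transporter VRG4 -1.59. In the endoplasmic reticulum the O-mannosyltransferases PMT2 and PMT4 had -1.32 and -1.31, and 4 of 30 glycosylation genes were lower (median -0.33). The unfolded protein response list had 1 higher and 1 lower gene of 16, MPD1 with 1.21 and SCJ1 with -1.16, and the coat list had 1 lower gene of 18, ARF1 with -1.49. The exocyst and SNARE list had 3 of 28 higher, PEP12 (1.31), SEC17 (1.07) and VTI1 (1.03).

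Genes of cell division and of the growing bud were lower in part. In the spindle and kinetochore list 15 of 32 were at least 2-fold lower, 0 higher and 30 below 0 (median -0.90). CIN8, a kinesin, had -1.97, and SPC97 and SPC98, of the gamma-tubulin complex, had -1.75 and -1.62. At the replication fork 14 of 30 were lower and 0 higher (median -0.74). The lowest were the polymerase subunits POL1 with -2.84, DPB2 with -2.66 and POL12 with -2.59, and the clamp POL30 with -2.52, while RFA1 and ORC5 had 0.10 and 0.08. Repair and checkpoint genes had 4 of 35 higher and 4 lower (median 0.18). Each share, 11.4%, was below that over all features (16% higher and 17.4% lower). The photolyase PHR1 had 1.96 and the glycosylase MAG1 1.51, against -2.35 for MSH6 and -1.38 for PMS1, both of mismatch repair, and -1.30 for the kinase RAD53. Polarity and septin genes had 6 of 25 lower and 0 higher (median -0.61), with GIC2 at -2.35 and the Ras-related RSR1 at -2.03. The actin patch list had 3 of 33 higher and 1 lower (median 0.43), with AIP1 at 1.26, MYO3 at 1.23 and ENT2 at 1.09 against the formin BNR1 at -1.20.

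Pairs of related genes gave the sharpest contrasts within a function. Of 83 listed pairs 57 were at least 2-fold apart and 17 at least 16-fold apart, and the median difference was 2.13 on the log2 scale. In 26 pairs only 1 member was at least 2-fold higher with the other within 2-fold, in 17 both were higher, in 14 the members were past 2-fold in opposite directions, in 7 both were lower, in 6 only 1 was lower and in 13 neither passed. The pairs were listed with earlier results of these data known, so their counts describe this list of pairs and not yeast paralogs in general.

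The largest difference was that of the transketolases, 7.36 for TKL2 against -1.58 for TKL1, a ratio of ratios of 489.4-fold. The next pairs were also of the pentose phosphate pathway. The transaldolases NQM1 and TAL1 had 6.85 and -0.68, and the dehydrogenases GND2 and GND1 had 6.14 and -1.32. The lactonases SOL4 and SOL3 had 4.83 and -0.72. In each of these 4 steps the minor isoenzyme was higher and the major one below 0.

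Opposite 2-fold differences were found in further steps of metabolism. The mitochondrial aldehyde dehydrogenases ALD4 and ALD5 had 3.23 and -3.55, the cytochromes c CYC7 and CYC1 had 2.80 and -2.97, and the pyruvate decarboxylases PDC6 and PDC1 had 3.60 and -1.36. The glutathione peroxidases GPX1 and GPX2 had 3.53 and -1.29. The large subunits of ribonucleotide reductase RNR3, known for its induction by DNA damage, and RNR1 had 1.38 and -3.12. Both genes for Ran, GSP2 and GSP1, stood at 2.04 and -1.69. The CTP synthases differed as widely, URA8 with 0.99 and URA7 with -4.41, but URA8 did not pass 2-fold.

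In other pairs 1 member was far higher and its partner within 2-fold. The phosphoglucomutases PGM2 and PGM1 had 4.29 and -0.78, the Hsp70 chaperones SSA4 and SSA2 had 4.30 and -0.07, and the glycerol-3-phosphate dehydrogenases GPD1 and GPD2 had 3.87 and -0.47. The hexokinases HXK1 and HXK2 had 2.97 and -0.94, the peroxiredoxins TSA2 and TSA1 had 3.37 and -0.34, and the wall proteins PIR3 and HSP150 had 3.90 and -0.51. SPI1 and SED1, also of the wall, had 5.34 and 0.62. In a further set both members were past 2-fold in the same direction: the catalases CTT1 and CTA1 (6.40 and 1.91) and the glycoproteins SPS100 and YGP1 (7.03 and 2.84).

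The pairs with the smallest differences were the homocitrate synthases LYS20 and LYS21 (-0.48 and -0.52), the elongation factors TEF2 and TEF1 (-1.27 and -1.33), the initiation factors TIF1 and TIF2 (-1.39 and -1.46), the proteolipids PMP2 and PMP1 (-1.07 and -1.21) and the oxysterol-binding proteins HES1 and KES1 (-0.07 and -0.22). Probes for near-identical coding sequences such as TEF1 with TEF2 and TIF1 with TIF2 may bind both transcripts, so a small difference there may be shared signal.

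**Figure D4:**
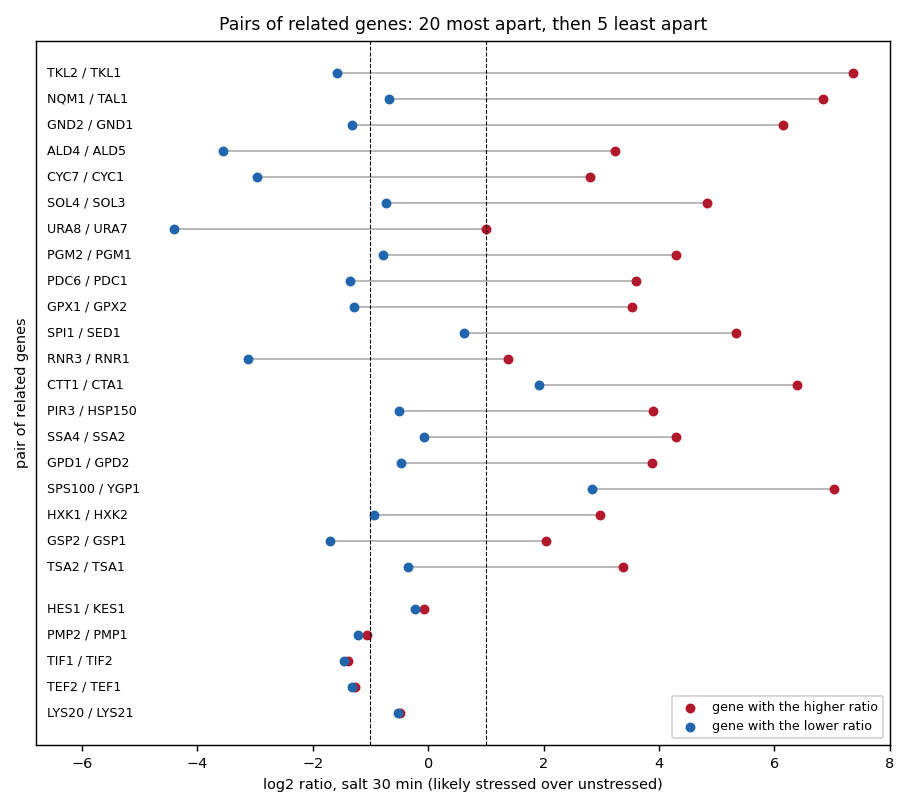
Log2 ratios at 30 min (x axis) of both genes of the 20 pairs that were farthest apart and the 5 that were closest, with a line joining the 2 genes of a pair and lines at 2-fold. TKL2 and TKL1 span from 7.36 to -1.58, and LYS20 and LYS21 nearly coincide.

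The kinds of feature on the array also differed. The 5925 measured reading frames in the gene table had a median of -0.02, with 924 (15.6%) at least 2-fold higher and 1095 (18.5%) lower. The 127 measured nuclear tRNA genes leaned lower, with 49 (38.6%) at least 2-fold lower, 3 higher, 116 below 0 and a median of -0.85. Their lowest ratio was -1.90 for tR(CCG)L. All 3 higher ones were aspartate tRNA genes on chromosome X, tD(GUC)J2 with 1.90, tD(GUC)J4 with 1.09 and tD(GUC)J1 with 1.03, while another copy of that set, tD(GUC)J3, had -1.82. Copies of a tRNA gene are near-identical, so it is uncertain which gene gave ratios this far apart in 1 set. Small nucleolar and nuclear RNAs had 0 of 70 higher and 6 lower (median -0.25), with snR67 lowest at -1.31. Their ratios were thus small beside those of the snoRNP core proteins, whose median was -3.30.

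The 37 measured mitochondrial features stayed close to 0, with 1 higher and 2 lower and a median of 0.15. Their highest was the reading frame Q0142 with 1.45, and their lowest were Q0032 with -1.22 and the methionine tRNA tM(CAU)Q2 with -1.20. Among 40 other features were RUF21 with 2.12 and RUF20 with -1.40, and the ribosomal 5S gene RDN5-4 with -1.09.

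Of 606 measured reading frames absent from the gene table, 150 (24.8%) were at least 2-fold higher and 31 (5.12%) lower, with a median of 0.37. The highest after YBR116C were YOR345C with 3.92, YLR252W with 3.68 and YDL023C with 3.55. The lowest were YOR309C with -3.89 and YJL182C with -3.43. YOR309C has the systematic number next to NOP58 (YOR310C), which had -3.82. Where such a frame past 2-fold had a gene of the table as a neighbour by number, that neighbour was past 2-fold in the same direction for 16 of 18 lower frames (88.9%) and 39 of 94 higher ones (41.5%). For frames in the table the shares were 381 of 1037 lower ones (36.7%) and 339 of 855 higher ones (39.6%). The sources used here do not say whether probes distinguish overlapping or opposite-strand transcripts, so the ratio of such a frame cannot be told apart from that of a gene it overlaps.

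**Figure D5:**
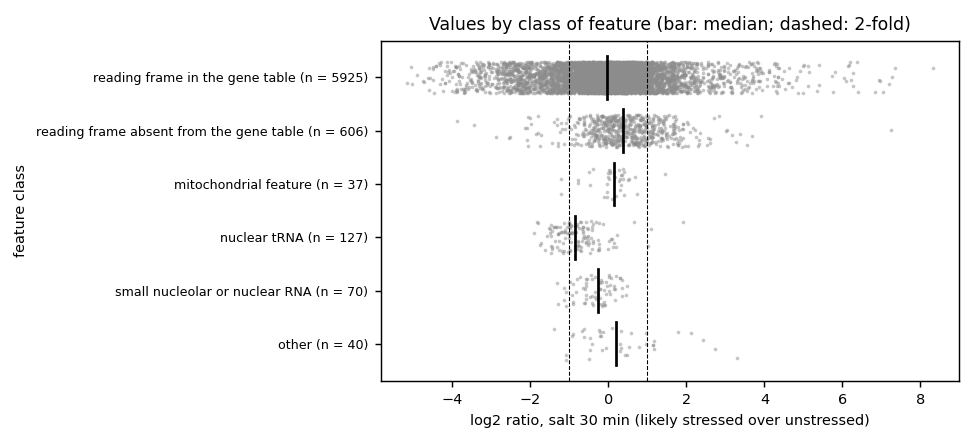
Log2 ratios at 30 min (x axis) by kind of feature (y axis), with 1 point per feature, a bar at the median and lines at 2-fold. Nuclear tRNA genes are centred at -0.85 and reading frames absent from the gene table at 0.37.

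Position in the genome was described from the order, orientation and overlap of genes in the reference table, whose coordinates are not printed. Chromosome medians ran from -0.14 (XIV) to 0.20 (I). The 10 outermost genes of each chromosome end, 320 genes in all, had a median of 0.32 with 21.9% at least 2-fold higher and 8.75% lower, against -0.05, 15.2% and 19.0% for the other 5605. Some families with members near chromosome ends share sequence, so their ratios may be partly shared. Their lists also hold genes that lie elsewhere, such as TIR3 and AGA1. Of 32 seripauperins and related wall proteins 10 were higher and 2 lower (median 0.26), from PAU21 with 2.58 and PAU19 with 2.29 to TIR3 with -1.39. The COS and AAD families had 1 of 17 higher, COS8 with 1.07 (median 0.65). Among 9 flocculins and agglutinins FLO10 had 1.64 and AGA1, the anchor of the a-agglutinin, -2.29.

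Neighbouring genes leaned the same way slightly more often than the product of the single shares. Of 5909 pairs of adjacent genes in the table, 239 (4.04%) were both at least 2-fold higher, where the product of the shares is 2.43%. Both were lower in 256 (4.33%, product 3.42%), and 260 (4.40%, product 5.76%) were past 2-fold in opposite directions. Across gene pairs the Pearson correlation of the ratios was 0.15, as a description over genes that are not independent. It was 0.22 over 1531 divergent pairs, which share an upstream region, 0.16 over 2853 tandem pairs and 0.04 over 1525 convergent pairs. Leaving out the 84 pairs whose annotations overlap gave 0.14 over all the rest.

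In 16 places at least 4 adjacent measured genes were all at least 2-fold higher, and in 11 they were all lower. The longest set was 8 genes on chromosome IV: MRX9 (1.57), RTK1 (1.48), DIA3 (4.32), YDL022C-A (3.78), GPD1 (3.87), GPM2 (2.21), RPN4 (1.58) and OSH2 (1.33). GPD1 makes glycerol and RPN4 is the transcription factor of proteasome genes. The frame YDL023C (3.55), absent from the table, has a number between those of DIA3 and GPD1. Chromosome VIII had 2 sets of 5. The first held the hexose transporters HXT4 (1.67), HXT1 (2.21) and HXT5 (7.18) with AHT1 (1.07) and PAL2 (2.21). The second held ARO9 (5.13), YHR138C (2.96), SPS100 (7.03), YHR139C-A (1.48) and YHR140W (2.85). On chromosome XV, YOL085C (4.60), PHM7 (6.28), the autophagy receptors ATG34 (1.83) and ATG19 (2.02) and the Ras regulator IRA2 (1.36) formed another. A set on chromosome XIII held DDR48 (2.14), PAI3 (3.91), SIP18 (6.97) and YMR175W-A (3.86).

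Many of the lower sets held genes for making ribosomes. On chromosome XIV, RPC19 (-2.52), DBP2 (-3.65) and NOP15 (-3.65) flanked CYB5 (-1.99), the cytochrome b5 gene. On chromosome IV, SYO1 (-4.91), RPS29B (-2.33) and TSR1 (-3.32) followed UBC9 (-1.18), the SUMO-conjugating enzyme. On chromosome XIII, GAS1 (-2.52), PSE1 (-1.03), NIP1 (-1.45) and UPA2 (-2.78) were adjacent. The longest lower set had 5 genes, on chromosome XI, and no ribosomal gene among them: YKR041W (-1.33), UTH1 (-1.61), SHB17 (-1.61), UIP5 (-2.04) and YKR045C (-1.15). The MAL genes and adjacent ones formed higher sets on chromosomes II and VII, with ratios from 1.04 for IMA1 to 1.86 for MAL33. Some MAL genes have a near-identical copy in the other set, so those ratios may be shared.

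The 60 min array is set beside these values without a test, since each time is 1 array and the unstressed RNA may differ. There 458 features were at least 2-fold higher and 297 lower. The 30 highest and 30 lowest features were chosen as the extremes of the 30 min column. Ratios nearer to 0 on another array therefore follow in part from that choice. All 30 of the highest features at 30 min had smaller ratios at 60 min and were still at least 2-fold higher, from 2.0 for YOR019W to 6.53 for GRE1, and their median was 6.18 at 30 min and 4.33 at 60 min. GRE1, HBT1 and SIP18 were nearly as high at 60 min (6.53, 5.26 and 6.39) as at 30 min, whereas SPG4 had 6.08 and 2.87 and FMP45 5.15 and 2.33. All 30 of the lowest features were nearer to 0 at 60 min, 20 of them still at least 2-fold lower, with medians of -4.42 and -1.10. AAH1 and ZEO1 were the lowest of them at 60 min, with -2.99 and -2.46, while NOC2 had -0.69 and SYO1 -0.72. The ribosome assembly genes had a median of -0.79 at 60 min against -3.04 at 30 min, and the degradation genes 0.37 against 1.10. Nuclear tRNA genes differed little, with -0.79 against -0.85, and mitochondrial features were further from 0 at 60 min, with 0.64 against 0.15. The spread of all ratios was smaller at 60 min, so the times also differ in the scale of all ratios.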

How the data were processed

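The authors deposited 1 log2 ratio for each feature and array, if the base of 2 assumed here is right. Not given in the sources used here were the background correction, normalization, probe summary, genome build and log base. Scanner intensities were not used. Features at exactly 0 were left out, and size thresholds of 2-fold were applied to the values as deposited. With 1 array per time no test was made. Names, gene order, orientation and overlap came from the reference gene table (assembly R64), and no coordinates are printed. Near-identical genes (within the MAL, PAU and COS families, ALD2 and ALD3, copies of ribosomal protein genes, tRNA copies) may share signal.

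The text draws its names from a rule: the 30 highest and 30 lowest features; in each list the 4 highest and 4 lowest genes and any at least 8-fold from 0; the reporters; the 20 widest and 5 closest pairs; the 5 extremes of each kind of feature; genes in sets of at least 4 adjacent ones; and the 3 nearest to the threshold on each side. Names outside it were chosen after their values were seen. Not all genes it names are given. The genes, lists and pairs were chosen with earlier results of these data known, and roles of the extremes were assigned after their values were seen. A planned comparison of promoter motifs was not run, since promoter sequences were not used here. Computations used Python 3.11.15, pandas 2.3.3, numpy 2.4.6 and matplotlib 3.10.9, and the search for adjacent sets was tested on simulated data.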

Additional observations from a re-analysis of the deposited data

Results flagged for a closer look

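At 30 min 2273 features were past 2-fold in either direction, and 158 of them had the opposite sign at 60 min, 7 of them past 2-fold there too. The rule for named genes covers 22 of the 158, which are given here because their sign differs between the times. The difference was not tested, since each time is 1 array, and part of the 60 min values lie close to 0.

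Higher at 30 min were 6 of them. The methionine permease MUP3 had 1.76 at 30 min and -0.30 at 60 min, and haem oxygenase (HMX1) had 1.25 and -0.78. DDI1, a ubiquitin-binding protease, had 1.21 and -0.24, and GTS1 had 1.16 and -0.20. The endocytic adaptor ENT2 had 1.09 and -0.12, and GID7 of the GID ligase had 1.07 and -0.06.

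Lower at 30 min were 16. RNR1, of ribonucleotide reductase, had -3.12 at 30 min and 0.73 at 60 min. The mannosyltransferase MNN1 had -2.86 and 0.24, and the zinc transporter ZRT1 had -2.33 and 0.10. Spindle and cell cycle genes among them were SPC97 (-1.75 and 0.01), SPC98 (-1.62 and 0.49), the kinesin KAR3 (-1.37 and 0.21) and the checkpoint kinase RAD53 (-1.30 and 0.30). Lipid and glycosylation genes were CYB5 (-1.99 and 0.02), YEH1 (-1.42 and 0.46), SUR2 (-1.38 and 0.27) and ALG14 (-1.42 and 0.10). The glutathione peroxidase GPX2 had -1.29 and 0.51. The reading frames YMR304C-A (-2.88 and 0.09) and YOR293C-A (-1.86 and 0.56), the mitochondrial frame Q0032 (-1.22 and 0.46) and the mitochondrial tRNA tM(CAU)Q2 (-1.20 and 1.08) complete the set.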

How the results depend on the processing

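The counts depend on the size threshold by construction. At 1.5-fold 1826 features were higher and 1828 lower, and at 4-fold 347 and 498. At 4-fold the lists with a median past the threshold numbered 9 against 16 at 2-fold. Adjacent pairs past the threshold the same way numbered 1043 at 1.5-fold and 116 at 4-fold, against 495 at 2-fold. Other centres moved the counts by less than 1.5 times: 1120 higher and 1150 lower with the gene-table median set to 0, and 1039 and 1237 with the midpoint of the shortest interval that holds 50% of the features set to 0. A natural log would give 1590 and 1633. The share of higher features among those past the threshold ran from 41.1% at 4-fold to 49.97% at 1.5-fold, against 47.8%. With that midpoint 3 list medians close to 0 changed sign: Mediator from 0.0014 to -0.04, mRNA decay from 0.01 to -0.03 and mitochondrial carriers from 0.02 to -0.02. No paired analysis was possible because each time has 1 array, and for the same reason no array could be left out. The alternatives for promoter motifs were not run. Without replicates or intensities the error of a ratio is unknown.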
